A study of Mus musculus with 6 samples.

Results

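The genes described are Wnt9a, which encodes a secreted Wnt ligand, and Axin2, which encodes a scaffold protein and is the standard feedback target of beta-catenin signalling. They were taken by name from a table of 99 genes, so 2 of 99 genes are members. Expression was measured in B16F10 cells, a pigmented melanoma line of the mouse with the genotype given as WT, by sequencing of poly(A) RNA. There were 3 untreated libraries and 3 libraries of cells that had received MTyr-OANPs for 48 h, with the same serum-supplemented growth medium given for both groups. MTyr-OANPs is the submitters' code and is not expanded here. The labels give no vehicle group and no time for the untreated libraries, so handling, time in culture and treatment cannot be told apart. The libraries of a group are described as biological replicates, but whether they came from separate cultures is not stated, so p-values here measure the spread between libraries, which may be technical. Both genes were chosen with their difference between these groups already known. Their levels and changes are therefore a description, and no p-value is printed for them. Where a test outcome of a member is named, it is part of that description.

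In the canonical Wnt pathway a ligand binds a Frizzled receptor together with Lrp5 or Lrp6, which stops a complex of Axin, Apc and the kinases Gsk3 and casein kinase from marking beta-catenin for degradation. Beta-catenin then enters the nucleus and activates genes with the TCF/LEF factors. Axin2 is one of these genes, and its product is a scaffold of the degradation complex, so that the pathway limits itself. In the mouse, Wnt signalling directs neural crest cells toward melanocytes, and Wnt9a is known for its role in joint formation.

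Wnt9a lies on chromosome 11 at 59306928 to 59333552 on the plus strand (GRCm38), a span of 26.6 kb, and both of its 2 annotated transcripts are protein-coding. Axin2 lies on the same strand of chromosome 11 at 108920349 to 108950783, a span of 30.4 kb and 49.6 Mb from Wnt9a. It has 7 annotated transcripts, 5 of them protein-coding, which the gene counts do not separate. No exon of Wnt9a overlaps another gene. Of the 5506 exonic bases of Axin2, 209 (3.8%) overlap Gm11670, an antisense gene on the other strand. Whether counting used strand is not stated, so reads from these bases cannot be assigned to either gene.

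The 250 bases before each start are shown because Axin2 is the member known as a TCF/LEF target (RefSeq, GRCm38.p6, plus strand, 5′ to 3′). They are counted from the RefSeq start, which for Wnt9a is 59306930, 2 bases inside the start in the table, and for Axin2 is the table's start. Capitals mark a match to the E-box CACGTG, to the E-box CATGTG, or to a TCF/LEF motif, spelled as CTTTGAA or as CTTTGAT or as CTTTGTA or as CTTTGTT, all searched on both strands.
Wnt9a, chr11:59306680-59306929: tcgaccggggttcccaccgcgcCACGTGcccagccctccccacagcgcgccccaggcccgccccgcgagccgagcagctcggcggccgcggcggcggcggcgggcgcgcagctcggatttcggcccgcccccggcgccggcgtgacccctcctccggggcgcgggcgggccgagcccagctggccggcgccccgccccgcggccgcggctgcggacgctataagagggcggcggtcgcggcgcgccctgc
Axin2, chr11:108920099-108920348: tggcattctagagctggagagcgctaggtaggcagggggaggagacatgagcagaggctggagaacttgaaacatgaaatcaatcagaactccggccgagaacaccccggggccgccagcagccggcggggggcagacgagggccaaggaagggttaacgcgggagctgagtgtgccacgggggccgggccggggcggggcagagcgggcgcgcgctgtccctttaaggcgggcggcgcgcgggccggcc
The Wnt9a window held 1 CACGTG, a sequence that reads the same on both strands, which began 228 bases before the RefSeq start; 6.0% of all 32851 such windows held it. CATGTG, held by 12.3% of windows, was in neither. Neither window held a TCF/LEF motif, which 14.8% of windows held; these letters are not in these bases, and more distant sequence was not searched. The windows were rich in G and C, at 84.4% for Wnt9a and 69.2% for Axin2 against a median of 52.4% over all windows. They held 48 and 24 CpG pairs, against a median of 6.

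Wnt9a was expressed at a low level in untreated cells and was several times higher after MTyr-OANPs. Its level in untreated libraries 1, 2 and 3 was 1.11, 0.889 and 0.961 FPKM (fragments per kilobase of exon, scaled to library depth). In treated libraries 1, 2 and 3 it was 6.68, 6.86 and 5.98 FPKM. Every treated library was above every untreated one, and the lowest treated library was 5.37 times the highest untreated one. The deposited counts behind these levels were 309, 229 and 256 in untreated and 1500, 1939 and 1696 in treated libraries. The group means were 0.988 ± 0.114 and 6.50 ± 0.466 FPKM (SD, n = 3 each), a 6.59-fold difference. The log2 fold change was 2.71 (SE 0.11). The gap of 4.86 FPKM between the groups was far larger than the SD within them, 0.339 FPKM when both groups are pooled.

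Axin2 was lower after MTyr-OANPs, by a small amount and with groups that nearly met. Its level in untreated libraries 1, 2 and 3 was 1.94, 1.90 and 1.69 FPKM. In treated libraries 1, 2 and 3 it was 1.23, 1.32 and 1.62 FPKM. The groups did not overlap in FPKM, but treated library 3 was only 0.0784 FPKM below untreated library 3, less than the pooled SD of 0.171 FPKM. The counts, which are not scaled to depth, were 893, 810 and 742 in untreated and 459, 621 and 759 in treated libraries, so unscaled counts of the groups do overlap. The group means were 1.85 ± 0.135 and 1.39 ± 0.200 FPKM (SD, n = 3 each), a 1.33-fold difference. The log2 fold change was -0.41 (SE 0.13).

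**Figure D1:**
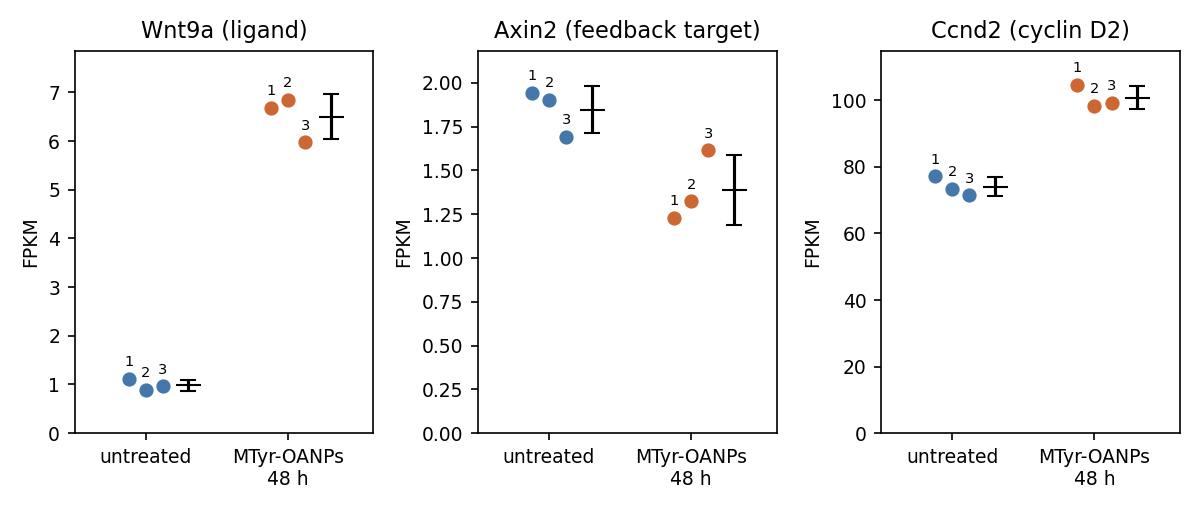
Level (FPKM, linear axis from 0) of Wnt9a, Axin2 and Ccnd2 in each library, with points numbered by library and bars for the mean and SD of 3 libraries. Wnt9a moved from about 0.988 to 6.50 FPKM and Ccnd2 from 74.0 to 101 FPKM with wide gaps between groups, while treated library 3 of Axin2, at 1.62 FPKM, sat just under the lowest untreated library.

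Relative to the mean, the spread within groups was larger in untreated libraries for Wnt9a and in treated libraries for Axin2. The coefficient of variation of Wnt9a was 11.6% in untreated libraries, the fourth highest of the 53 tested genes, and 7.2% in treated libraries, the 15th highest. That of Axin2 was 7.3% in untreated libraries, the 13th highest, and 14.4% in treated libraries, the sixth highest. Counting error alone would give 5.7 to 6.6% for Wnt9a in untreated libraries if every count were a separate event, and 11 to 13% if 4 counts made 1 event. Low counts in the table were mostly multiples of 4, and what 1 count stands for is not stated. For Axin2 in treated libraries the same readings give 3.6 to 4.7% and 7.3 to 9.3%, both under the observed 14.4%.

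Among the genes with a mean of at least 1 FPKM over all 6 libraries, edgeR's quasi-likelihood test with Benjamini-Hochberg adjustment at 0.05 called 44 of 53 (83.0%), with 20 higher (37.7%) and 24 lower (45.3%) after treatment. Both members were among the called genes, Wnt9a higher and Axin2 lower, and with so many genes called and both chosen on this contrast, nothing is read from it. The groups did not overlap in FPKM for 45 of 53 genes (84.9%), both members included. Wnt9a entered the test only through its treated libraries, since its untreated mean was under 1 FPKM; Axin2 was above 1 FPKM in every library. Over all tested genes the median log2 fold change was -0.03, and its median size without sign was 0.50. The change of Wnt9a was well above that size and that of Axin2 below it.

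By log2 fold change Wnt9a was the second highest of the 53 genes. Ngfr, a receptor for neurotrophins, stood just above it at 2.89 (SE 0.07), and Itgb2, an integrin chain of white blood cells, just below it at 2.00 (SE 0.33). Axin2 had the 17th lowest value, between Ccm2 (-0.52, SE 0.04), a scaffold of endothelial junction signalling, and Ndufa9 (-0.34, SE 0.04), a subunit of respiratory complex I. The SE of Axin2, 0.13, was larger than its distance to both neighbours in this order, so its place there is not fixed.

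**Figure D2:**
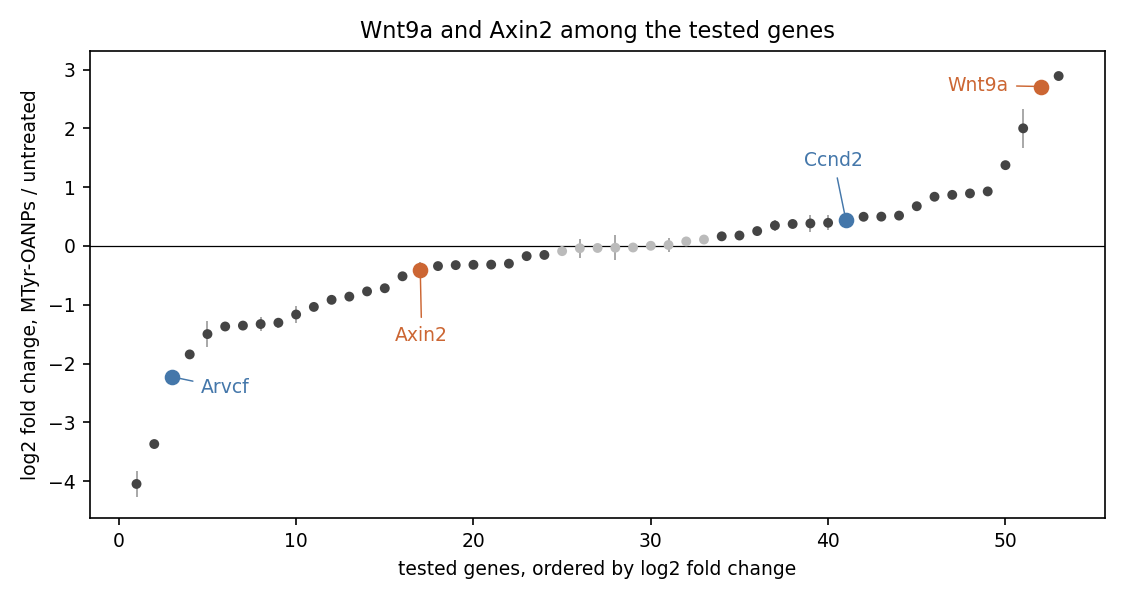
Log2 fold change (treated over untreated) of the 53 tested genes in rising order, with bars for the SE; dark points passed edgeR's test at an adjusted p of 0.05 and light points did not. Wnt9a (2.71) is next to the top and Axin2 (-0.41) lies in the shallow middle of the lower genes; Ccnd2 and Arvcf are the other tested genes of the lists used.

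The order of the members' levels turned over between the groups. FPKM is a level per length, so the members can be compared within a library, and their ratio does not depend on how libraries are scaled. Wnt9a stood at 0.573, 0.467 and 0.567 times the FPKM of Axin2 in untreated libraries 1, 2 and 3. In treated libraries 1, 2 and 3 it stood at 5.43, 5.18 and 3.70 times that of Axin2. Axin2 was thus the higher of the pair in each untreated library, and Wnt9a in each treated one. The log2 ratio went from -0.91 ± 0.17 to 2.23 ± 0.30 (SD, n = 3 each), a difference of 3.14 (SE 0.20), or 8.82-fold. Most of that shift came from Wnt9a, whose own log2 fold change was 2.71. Treated library 3 had both the lowest Wnt9a and the highest Axin2 of its group, and hence the lowest ratio. Among the 53 tested genes Wnt9a ranked 52nd by mean FPKM in untreated and 37th in treated libraries, while Axin2 ranked 49th and 51st.

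**Figure D3:**
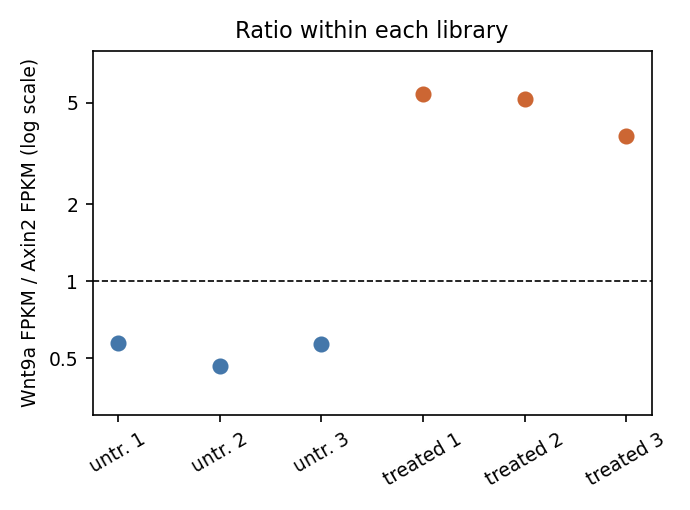
Ratio of Wnt9a FPKM to Axin2 FPKM within each library, on a log axis, with the dashed line at equal levels. The untreated libraries lie between 0.467 and 0.573 and the treated ones between 3.70 and 5.43, with treated library 3 the lowest of its group.

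Few other genes of the pathway were in the table. Of 133 genes listed as Wnt ligands, secretion and extracellular factors, receptors, cytoplasmic and nuclear components or targets, 4 were present: the members, the ligand Wnt3 and the cell cycle gene Ccnd2. None of the 22 receptors, 20 secretion and extracellular factors or 18 nuclear components was among the 99 genes, and they were not analysed here. The table's own KEGG annotation places the same 4 genes in the Wnt signaling pathway. It also places Wnt9a and Wnt3 in its melanogenesis term.

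Among the ligands, Wnt3 was near or at 0 in all libraries. Its count was 4 in treated library 1 and 0 in each of the others, so it was not tested. Wnt9a was thus the only one of the 2 listed Wnt ligands in the table with a measurable level; the other 17 of the 19 listed ligands were not analysed here.

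Among the targets, Ccnd2, which encodes cyclin D2 and drives entry into the cell cycle, went the other way from Axin2. Its level in untreated libraries 1, 2 and 3 was 77.3, 73.4 and 71.5 FPKM, and in treated libraries 1, 2 and 3 it was 104.7, 98.4 and 99.3 FPKM. The treated libraries were all above the untreated ones. The log2 fold change was 0.44 (SE 0.04, edgeR adjusted p = 1.0e-09), so Ccnd2 rose. With 44 of 53 tested genes (83.0%) called and the lists chosen with earlier results known, nothing further is read from its p-value. Of its exonic bases, 7.9% overlap antisense genes. Ccnd2 responds to many pathways besides Wnt; of the 28 listed targets only it and Axin2 were in the table.

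Catenins also serve in cell junctions, and 3 of 12 listed junction genes were in the table. Arvcf, a catenin of the p120 family that binds classical cadherins, stood at 4.66, 4.24 and 4.11 FPKM in untreated and at 0.809, 1.02 and 0.936 FPKM in treated libraries 1, 2 and 3. The groups were far apart and Arvcf fell, with a log2 fold change of -2.22 (SE 0.11, edgeR adjusted p = 4.0e-15). The same limit applies to this p-value as to that of Ccnd2. Arvcf also reached the minimum of 1 FPKM only through its untreated libraries, since its treated mean was 0.920 FPKM. The cadherins were too low to test. Cdh1, the epithelial cadherin, had mean counts of 5.3 untreated and 10.7 treated, and Cdh4, the retinal cadherin, had a count of 4 in treated library 2 and was listed at 0 elsewhere.

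The genes whose levels over the 6 libraries were most like each member were found by the root mean square difference of log2 FPKM, each gene taken relative to its untreated mean. Nearest to Wnt9a was Ngfr, at 0.138, which went from 1.37 to 10.2 FPKM. Itgb2 at 0.636 and Zfp385a, a zinc finger gene, at 0.967 followed at a distance. Nearest to Axin2 were Ndufa9 at 0.150, Dazap2 at 0.154 and Brat1, a gene of the DNA damage response, at 0.158, with values that hardly differ. With only 2 conditions this likeness mostly reflects the size of the change between groups.

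Of the genes of the table that lie nearest to the members on chromosome 11, only Pemt was high enough to test. Pemt, a methyltransferase of phosphatidylcholine synthesis 0.64 Mb from Wnt9a, went from 1.55 to 1.51 FPKM and did not pass the test (log2 fold change -0.04, SE 0.16). Glra1, a glycine receptor subunit 3.70 Mb to the other side of Wnt9a, and Apoh, a plasma glycoprotein 0.51 Mb from Axin2, were listed at 0 in all libraries. Btbd17, 5.84 Mb beyond Axin2, had mean counts of 34.7 untreated and 6.3 treated and was below the FPKM minimum. Of the 13 tested genes on chromosome 11, 5 were called higher and 5 lower, the members included. Over all 53 tested genes, 37.7% were called higher and 45.3% lower. Nothing particular to the chromosome is read from these counts.

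The size of both changes was also computed under other settings, as a description. TMM scaling and alignment of library medians raised the log2 fold changes of the tested genes by a median of 0.14 and 0.13. Both take the middle of the tested genes as unchanged. With 44 of 53 genes (83.0%) called, whether that holds here cannot be told. With TMM the log2 fold change of Axin2 was -0.27, over 1.5 times smaller, and its libraries ran from 1.62 to 1.85 FPKM in untreated and 1.31 to 1.72 FPKM in treated cells, so the groups overlapped. Without treated library 3 it was -0.53, and without treated library 1 it was -0.33. Over the 16 alternatives that tested the members, the log2 fold change of Axin2 ran from -0.53 to -0.25 and that of Wnt9a from 1.92 to 2.85. The groups of Wnt9a did not overlap under either rescaling.

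**Figure D4:**
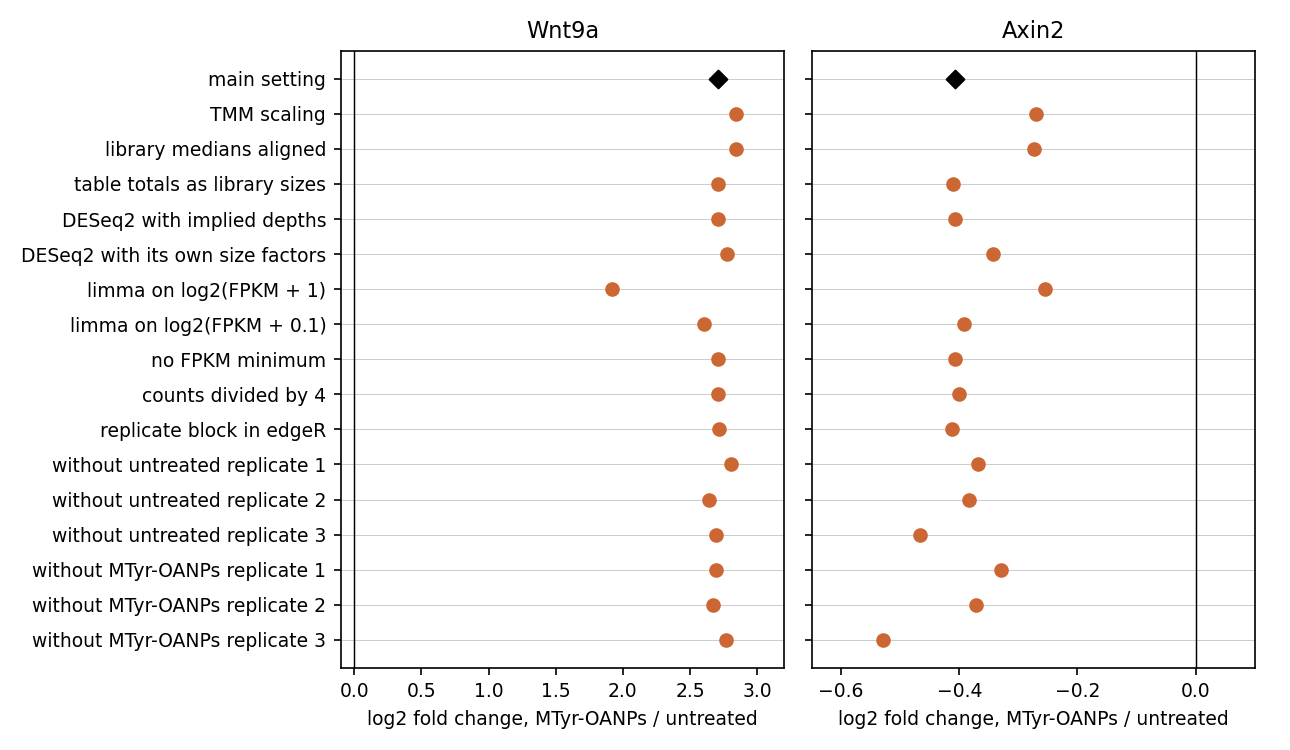
Log2 fold change (treated over untreated) of Wnt9a and Axin2 in the main setting (diamond) and in 16 alternatives (circles), on axes that differ. Wnt9a spans 1.92 to 2.85 and Axin2 spans -0.53 to -0.25.

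Total counts over the 99 genes ran from 334160 to 421423 per library, and relative library depths from 0.850 to 1.075. None of 10 melanocyte and melanoma markers was in the table, so the cell type could not be checked here. Of 26 markers of other cell types, 3 were present. The T cell kinase Lck, 1 of 6 T cell markers, had counts of 55 to 92 in untreated and 258 to 369 in treated libraries, or 0.241 to 0.392 and 1.09 to 1.48 FPKM, and its part in the results was not tested. Of the 6 fibroblast markers only Fap was present, at 0 in all libraries but untreated library 3, where its count was 15. Of the 4 epithelial markers only Cdh1 was present, with counts of 0 to 16, and no myeloid or endothelial marker was. In RNA from whole cultures, fewer cells with a transcript and less of it per cell cannot be told apart.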

How the data were processed

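For each gene the authors' deposited table gives whole-number counts and FPKM values by library, per the file headers; 0.0001 FPKM stands where the count is 0. CASAVA 1.4 and mm9 are named in the submitters' processing notes. For the aligner, counting tool, strand setting and annotation, the sources used here give nothing. Coordinates matched GENCODE M21 on GRCm38 at both ends for 86 of 99 genes and at 1 end for 13, so GRCm38 is used. Of 41 counts from 1 to 20, 30 were multiples of 4, so what 1 count stands for is unclear.

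Relative depths came from counts divided by FPKM over 59 genes with counts of at least 50, and were the library sizes of the fit. Genes averaging at least 1 FPKM were tested with edgeR 4.0.16 (R 4.3.3, quasi-likelihood, two-sided, Benjamini-Hochberg, 0.05). The edgeR, limma and DESeq2 steps were also run on simulated data, which checks the code only. Those data held fewer changed genes than were called here and no steps of 4, so they do not bear on the calls. Standard errors come from log2 FPKM within groups. Alternatives used TMM, aligned medians, table totals, DESeq2 1.42.0, limma 3.58.1, other FPKM minimums, counts divided by 4, the replicate number as a block, and each library left out. No 2 libraries of a group agreed within sampling noise (chi-square per gene 2.36 to 4.75, taking 4 counts as 1 event). A search of their transcripts with BLAST 2.17.0 for stretches of at least 100 bases at 90% identity found none shared between Wnt9a and another gene, and 1 of 105 bases between Axin2 and its overlapping partner Gm11670.

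The members, gene lists, motifs and tests were chosen with earlier results of these data known. The genes named are the members, every listed Wnt or junction gene in the table, the 3 tested genes most like each member, the genes next to each in rank, the nearest genes on chromosome 11, and the markers present.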

Additional observations from a re-analysis of the deposited data

How the results depend on the processing

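The direction of Wnt9a and Axin2 was the same in all 16 alternatives that tested them; with an FPKM minimum of 5 neither was tested. The log2 fold change of Wnt9a was 2.64 to 2.80 and that of Axin2 -0.53 to -0.33 when 1 library was left out. Axin2 was at -0.27 with TMM and at -0.27 with library medians aligned, and its adjusted p was above 0.05 in both and without untreated library 2, treated library 1 or treated library 2; since the genes were chosen on this contrast, this is a description. TMM and aligned medians raise all changes; the cause of the other shifts was not tested. The difference between the members' changes, 3.12, was 3.02 to 3.30 with 1 library left out and 2.17 in limma on log2(FPKM + 1), where the pseudocount shrinks changes of low genes. Called genes numbered 35 (42 tested) to 51 (83 tested) against 44, and 40 to 44 with 1 library left out. Outside the members, the 2 listed genes that were tested, Ccnd2 and the junction gene Arvcf, were both called. Over all tested genes 44 of 53 (83.0%) were called, so nothing is read from it. With an FPKM minimum of 5, Ccnd2 was called and Arvcf was not tested. Deviations from group means correlated at 0.31, 0.40 and -0.01 between same-numbered libraries, which does not settle whether the numbers pair them. The main fit did not pair the libraries. With the replicate number as a block there were 45 calls, and log2 fold changes were 2.71 for Wnt9a and -0.41 for Axin2. The lowest counts of the members were those of Wnt9a in untreated libraries (229 to 309), followed by those of Axin2 in treated libraries (459 to 759). The SE of the log2 fold change was nonetheless larger for Axin2 (0.13) than for Wnt9a (0.11).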
